A study of Oryza sativa with 12 samples.

Results

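SPL12 and PCF5 are rice genes that encode transcription factors of the plant-specific SPL and TCP families. They were taken by name from a table of 37878 genes, so the set is 2 genes of 37878. They were chosen by their counts over the tissues, since earlier results of the same table had shown SPL12 in embryo alone. Their levels are therefore given as a description, with no test. The libraries came from 4 tissues of developing rice (Oryza sativa) seed, with 3 libraries each: the embryo; the aleurone, the outer layer of the endosperm; the starchy endosperm; and the pericarp, the maternal fruit wall. All 12 libraries came from untreated plants grown in the field, and no genotype or treatment separates the groups. The 3 libraries of a tissue are biological replicates per the design text, and whether the tissues were taken from the same seeds is not stated. Neither are the cultivar and the stage of the seed in the sources used here. Libraries carry the numbers of the column headers, which are 2, 3 and 4 for embryo, 1, 2 and 3 for aleurone, 2, 3 and 4 for endosperm and 1, 3 and 4 for pericarp.

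SPL proteins bind DNA through a zinc-binding domain, the SBP domain, and are known in rice for their part in panicle branching, tillering and grain shape. Many SPL transcripts, SPL12 among them, carry a site for the microRNA miR156, which lowers them. TCP proteins bind DNA through a helix-loop-helix type domain and fall into class I, tied to cell proliferation, and class II, many members of which restrain it. PCF5 belongs to the class II genes whose transcripts are cut by miR319.

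Total counts ran from 14205388 to 18169845 in embryo, from 5689112 to 16005961 in aleurone, from 6367350 to 24412371 in endosperm and from 2879282 to 6301388 in pericarp. Genes with a count numbered 14326 to 16862 in embryo libraries and 4599 to 5893 in pericarp libraries. Levels below are CPM, the counts per library after scaling by TMM factors, and are not per length. Where genes are compared with each other, CPM was divided by the gene's span in kilobases, introns included, since transcript lengths were not at hand. The tissue labels were set against marker genes. WAXY, the starch synthase gene of the endosperm, had 23088 to 81668 CPM in endosperm libraries. It had 1092 to 2639 CPM in aleurone, 343 to 2320 CPM in pericarp and 0.724 to 19.9 CPM in embryo. Of 4 embryo markers in the table, CYCB2-1, OSH15, WOX4 and WOX2, the last was at 0 in embryo too. All 4 were at 0 in aleurone and endosperm, and their summed level was 112 to 165 CPM in embryo. CYCB2-1, a mitotic cyclin gene, gave 85.1 to 128 CPM of this sum. Pericarp 3 held OSH15 at 54.8 CPM, and the other 3 markers were at 0 in every pericarp library. The gene lists were chosen with earlier results of these data known, so the embryo markers are no independent check of the label. OLE18 and LTP, the aleurone markers in the table, summed to 2893 to 3702 CPM in aleurone, but also to 1433 to 2402 CPM in embryo and 1687 to 2348 CPM in pericarp. The 4 pericarp markers in the table, SWEET11, SUT1, CHS1 and CHI, summed to 925 to 2155 CPM in pericarp, 535 to 1518 CPM in aleurone, 87.1 to 177 CPM in embryo and 0 to 33.8 CPM in endosperm. The sugar transporter gene SUT1 had 246 ± 76.2 CPM in pericarp and 668 ± 405 CPM in aleurone, the sugar transporter gene SWEET11 had 438 ± 247 and 353 ± 146 CPM (SD, n = 3), and both were at 0 in embryo.

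SPL12 was counted in the 3 embryo libraries and nowhere else. The gene lies on chromosome 6 at 31553631 to 31556852, on the minus strand, in a span of 3222 bases as the deposited table gives it, with no genome build stated. It had 1918 counts in embryo 2, 777 in embryo 3 and 1109 in embryo 4, and 0 in each of the 9 other libraries. These are 88.5, 43.1 and 53.5 CPM, a mean of 61.7 ± 23.8 CPM (SD, n = 3), and embryo 2 is the high library. The embryo libraries do not overlap with any other tissue. In bulk samples, fewer cells of a type and less RNA per cell cannot be told apart.

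A tissue without a count was held at a floor of 3 counts over its 3 libraries, which is 0.104 CPM in aleurone, 0.122 CPM in endosperm and 0.137 CPM in pericarp. Against these floors SPL12 was at least 595-fold higher in embryo than in aleurone, at least 506-fold higher than in endosperm and at least 452-fold higher than in pericarp. These floors allow for counting error alone. PCR reads without molecular identifiers are not independent molecules, and transcripts lost before sequencing are not covered.

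SPL12 varied between embryo libraries about as much as the typical gene. The highest embryo library held 2.05 times the CPM of the lowest, and the median of this ratio over the 12777 tested genes counted in all 3 embryo libraries was 1.99.

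A count in the 3 embryo libraries and in no other was found for 764 of 16347 genes that passed the filter on low counts, which is 4.67%. SPL12 was placed 21 among the 764 by its mean embryo CPM, and the median of these genes was 8.89 CPM. Of 2814 tested genes with an embryo mean at or above that of SPL12, 21 had this pattern, or 0.746%, SPL12 included. A larger set of 2164 tested genes, 13.2%, had every embryo library above every other library. Because SPL12 was chosen for this pattern, nothing is read from these shares.

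Libraries outside embryo lacked many genes that embryo held at such levels. Of the 2814 genes at or above the SPL12 embryo mean, pericarp libraries had 28.4% to 38.5% at 0, endosperm libraries 12.4% to 27.5% and aleurone libraries 3.84% to 19.5%. A gene at the SPL12 embryo mean would give 371 to 513 reads in pericarp libraries and 365 to 834 reads in aleurone libraries. The part of these missing genes in the zeros of SPL12 was not tested.

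PCF5 was counted in embryo and in aleurone. The gene lies on chromosome 1 at 6652611 to 6654978, minus strand, in a span of 2368 bases. It had 68 counts in embryo 2, 263 in embryo 3 and 170 in embryo 4. In aleurone it had 82 counts in aleurone 1, 0 in aleurone 2 and 33 in aleurone 3, and the 6 endosperm and pericarp libraries had 0. The embryo levels are 3.14, 14.6 and 8.20 CPM, and those in aleurone 6.07, 0 and 3.47 CPM. Embryo 2 fell below aleurone 1 and aleurone 3, so the groups overlap.

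The mean was 8.65 ± 5.75 CPM in embryo and 3.18 ± 3.05 CPM in aleurone (SD, n = 3), a ratio of 2.72. The ratio was 1.78 without embryo 3, 1.81 without aleurone 2 and 4.99 without aleurone 1, and 4.36 on library totals alone. The order of tissues by mean was embryo, aleurone, then endosperm and pericarp at 0, and embryo and aleurone as neighbours in it do not differ beyond their spread. Against the floors, PCF5 was at least 70.9-fold higher in embryo than in endosperm and at least 63.3-fold higher than in pericarp. The overlap of embryo and aleurone was also present with DESeq2 size factors, with means of 7.36 and 2.83, and with library totals alone, with 11.1 and 2.54 CPM.

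The column headers name sequencing lane 5 or 6 for each library. For PCF5 on lane 6, aleurone 1 was above embryo 2 and aleurone 2 was at 0. On lane 5, embryo 3 and embryo 4 were above aleurone 3. For SPL12 the lane 6 library was the high one of the embryo, and on both lanes embryo was above 0 and the other tissues at 0.

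**Figure D1:**
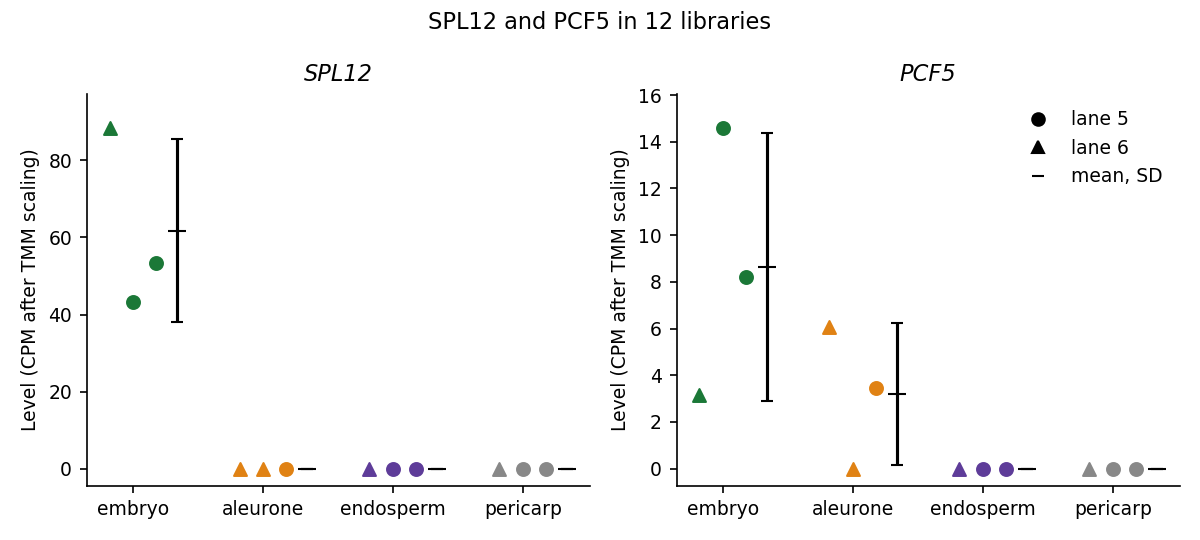
Levels of SPL12 (left) and PCF5 (right) in the 12 libraries, in CPM after TMM scaling on the y axis and by tissue on the x axis; points are libraries, with circles for lane 5 and triangles for lane 6, and the bar is the mean with its SD over 3 libraries. SPL12 is at 43.1 to 88.5 CPM in embryo and 0 elsewhere, while PCF5 spans 3.14 to 14.6 CPM in embryo and 0 to 6.07 CPM in aleurone.

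The zero of PCF5 in aleurone 2 stands beside a shallow library. A gene at the PCF5 embryo mean would give 51.2 reads in aleurone 2. It would give 44.7 to 96.2 reads in endosperm libraries and 52.0 to 71.8 reads in pericarp libraries. Aleurone 2 had 5689112 total counts, and 3 counts there equal 0.507 CPM, below the values of aleurone 1 and aleurone 3. Of 11029 tested genes with an embryo mean at or above that of PCF5, 44.2% were at 0 in aleurone 2, against 13.3% in aleurone 1 and 23.2% in aleurone 3. In pericarp libraries the share was 58.8% to 66.1% and in endosperm libraries 30.9% to 52.5%, and the part of such losses in the PCF5 zeros was not tested.

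PCF5 varied more between embryo libraries than most genes. Its highest embryo library held 4.65 times the CPM of its lowest, and 12.9% of the 12777 genes had a larger ratio. SPL12 and PCF5 ordered the embryo libraries in opposite ways. SPL12 was highest in embryo 2 and lowest in embryo 3, and PCF5 was highest in embryo 3 and lowest in embryo 2. Per kilobase of span, the level of SPL12 was 20.7 times that of PCF5 in embryo 2, 2.17 times in embryo 3 and 4.79 times in embryo 4.

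The SPL family has 4 symbols in the table, SPL12, SPL3, SPL15 and SPL10, and further members may be present without a symbol. SPL3, whose transcript like that of SPL12 is a target of miR156 in rice, had 991, 628 and 1388 counts in embryo 2, 3 and 4. It had 126, 0 and 153 counts in aleurone 1, 2 and 3, and 0 in endosperm and pericarp. Its mean was 49.2 ± 16.3 CPM in embryo and 8.47 ± 8.07 CPM in aleurone (SD, n = 3), and every embryo library was above every aleurone library. SPL3 thus occupied the same 5 libraries as PCF5 rather than the 3 of SPL12.

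Within embryo, SPL12 and SPL3 had similar levels per kilobase of span, and their spans are 3222 and 3278 bases. The level of SPL12 was 1.97 times that of SPL3 in embryo 2, 1.26 times in embryo 3 and 0.813 times in embryo 4, so their order was not the same in all 3 libraries.

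SPL15, which is not among the rice SPL genes known as miR156 targets, was spread over all 4 tissues. It had 122, 79.1 and 91.8 CPM in embryo 2, 3 and 4, and 148, 107 and 93.4 CPM in aleurone 1, 2 and 3. In endosperm 2, 3 and 4 it had 429, 151 and 471 CPM, and in pericarp 1, 3 and 4 it had 58.1, 37.0 and 0 CPM. The endosperm mean of 350 ± 174 CPM was the highest and the pericarp mean of 31.7 ± 29.4 CPM the lowest (SD, n = 3), with 172.2 and 47.7 CPM on library totals alone, in the same places of the order. Embryo and aleurone overlapped, and their order depended on the scale, with means of 97.5 against 116 CPM after TMM scaling but 123 against 102 CPM on library totals alone. SPL10 was at 0 in every library.

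The TCP family also has 4 symbols in the table, PCF5, PCF2, PCF6 and PCF8. PCF2, a class I gene first known for binding the promoter of a rice replication factor gene, had 3.46, 0 and 2.32 CPM in embryo 2, 3 and 4. It had 3.26 CPM in aleurone 3 and 7.84 CPM in endosperm 2, and 0 in the 7 remaining libraries. PCF6, a class II gene targeted by miR319 as PCF5 is, had 0.692, 0 and 3.28 CPM in embryo 2, 3 and 4 and 13.7, 0 and 6.92 CPM in endosperm 2, 3 and 4, with 0 in aleurone and pericarp. Per kilobase of span, the embryo means were 3.65 ± 2.43 for PCF5, 1.72 ± 1.57 for PCF2 and 1.23 ± 1.61 for PCF6 (SD, n = 3), which overlap. None of the 4 had a count in pericarp. PCF8, also a miR319 target, was at 0 in every library.

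Embryo was compared with the mean of the other 3 tissues on the log scale by edgeR's quasi-likelihood test across 16347 genes, with SPL12 and PCF5 left out of the lists. To pass, a gene needed a 2-fold difference or more and an adjusted p (Benjamini-Hochberg) under 0.05. Over all genes tested, 16.6% were higher in embryo and 1.12% lower. Of 10 SPL and TCP genes and partners in the table, 8 were tested, 3 were higher in embryo and 0 lower, and 4 of the 8 had an unadjusted p below 0.05, against 37.8% of all genes. DESeq2 called 4 of the 8 higher, GAM1 being the fourth, against 26.8% of the 14607 genes to which it gave an adjusted p. The 3 were SPL3 (adjusted p = 0.0170, edgeR), GRF1 and AOC. SPL15 (adjusted p = 0.967), PCF2 (adjusted p = 0.346) and PCF6 (adjusted p = 0.121) did not pass the edgeR test.

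The fitted log2 differences of embryo from the rest had a median of 3.22 over the 8 genes and 2.30 over all genes tested. Of the 8 genes, 6 were at 0 in all libraries of a tissue, and with each such tissue held at its floor the medians were 1.46 for the 8 and 1.62 for all genes. The list's median is thus above that of all genes on the first scale and below it on the second. The median over all genes moved with the scaling, to 2.05 with DESeq2 size factors and 2.87 with library totals alone.

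The partners of the SPL and TCP genes were taken from a list. GRF1, a growth-regulating factor of a family that in Arabidopsis is lowered through a microRNA induced by a TCP factor, had 45.0, 37.3 and 33.8 CPM in the embryo libraries. It had 7.77, 0 and 5.89 CPM in aleurone 1, 2 and 3, a single count in endosperm 2, and 0 elsewhere. The embryo mean was 38.7 ± 5.73 CPM (SD, n = 3), all embryo libraries were above the others, and the edgeR adjusted p was 0.0150.

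AOC encodes allene oxide cyclase of jasmonate synthesis, a pathway that TCP factors raise in Arabidopsis. It had 14.5, 36.1 and 20.6 CPM in embryo 2, 3 and 4, 23.2, 14.4 and 12.9 CPM in aleurone 1, 2 and 3, and 0 in endosperm and pericarp. Embryo and aleurone overlapped, at 23.7 ± 11.1 and 16.8 ± 5.55 CPM (SD, n = 3). Its call (adjusted p = 0.0145, edgeR) therefore comes from a contrast in which 2 of the 3 other tissues are at 0. The same 2 tissues were at 0 for SPL3 and held a single count for GRF1. Like PCF5, AOC was highest in embryo 3 and lowest in embryo 2.

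GAM1, the rice GAMYB factor of gibberellin signalling, whose family is targeted by a microRNA related to miR319, had 69.9 CPM in pericarp 1 and 0 in the other pericarp libraries. It had 2.08 to 8.22 CPM in embryo, 0 to 20.7 CPM in aleurone and 0 in endosperm. It did not pass with edgeR (adjusted p = 0.451) and passed as higher in embryo with DESeq2 (adjusted p = 0.0270), although its mean was highest in pericarp. SLR1, the rice DELLA repressor of gibberellin responses, whose Arabidopsis relatives bind SPL proteins, had 15.1 to 28.4 CPM in embryo and 0 to 111 CPM in pericarp, and it did not pass (adjusted p = 0.949, edgeR). No microRNA gene of either family was matched by symbol.

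The 3 calls depended on single libraries. The calls of SPL3 and GRF1 were lost when any embryo library was left out, with adjusted p from 0.0532 to 0.0684 and from 0.0503 to 0.0561 by edgeR. That of AOC was lost without embryo 3 (adjusted p = 0.0619) or embryo 4 (adjusted p = 0.0552). With the gene filter rerun on the libraries left, all 3 calls were lost without aleurone 3, endosperm 2 or endosperm 4 by edgeR, with adjusted p from 0.0509 to 0.0532. In these reruns all 3 were also lost without embryo 4, and those of SPL3 and GRF1 without embryo 2. All 3 held without embryo 3. Over all alternatives the adjusted p ran from 0.00157 to 0.127 for SPL3, from 0.00216 to 0.194 for GRF1 and from 0.00438 to 0.213 for AOC.

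**Figure D2:**
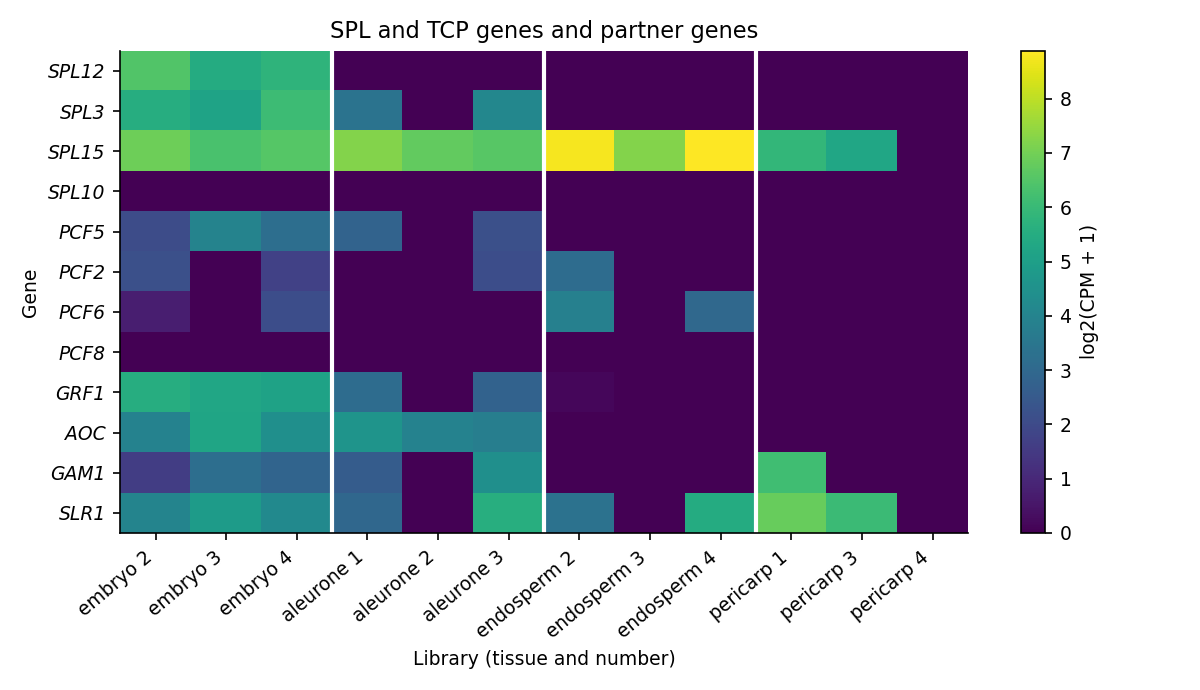
Levels of the SPL genes, the TCP genes and the partner genes as log2(CPM + 1) in colour, with genes in rows and the 12 libraries in columns, white lines parting the tissues. SPL12 is above 0 in the 3 embryo libraries alone, SPL3 and PCF5 in the same 5 libraries, and SPL15 in 11 of 12.

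The lists of transcription factors were drawn up by symbol to show how usual a higher level in embryo was among such genes. Of 83 such genes 46 were tested, and 16 were higher in embryo and 1 lower, against 16.6% and 1.12% of all genes tested. An unadjusted p below 0.05 was found for 24 of the 46 and for 37.8% of all genes tested. The median fitted log2 difference was 4.09 over the 46 and 2.30 over all genes tested, and with tissues without a count at their floor 2.75 and 1.62. Of the 17 genes called, 13 had their highest mean in embryo. Every embryo library was above every other in 8 of the 17: SPL3, GRF1, WOX4, ZHD2, IAA13, MYBS2, SHR1 and RR23. Over all 46 genes, called or not, 13 had this pattern, or 28.3%, against 13.2% of all genes tested. The other members of these 13 were HOX32, HOX33, ARF6, ARF23 and RR24, which were not called. As 16 of the 17 were called for being higher in embryo, nothing is read from the 8. Leaving out embryo 2, 3 or 4 gave 4, 3 and 3 calls among the 46 genes, and leaving out aleurone 3, endosperm 3 or endosperm 4 gave 9 each.

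Of the 46, WOX4, ZHD2 and SHR1 had the pattern of SPL12, counted in the 3 embryo libraries alone. They are 6.52% of the 46, against 4.67% of all genes tested. Their embryo means were 5.74 ± 0.81 CPM for WOX4, a homeobox gene of meristems, 9.25 ± 8.53 CPM for ZHD2, a zinc finger homeodomain gene, and 8.99 ± 1.72 CPM for SHR1, a GRAS gene named after the root factor SHORT-ROOT (SD, n = 3). The edgeR adjusted p was 0.0141 for WOX4, 0.0145 for ZHD2 and 0.0143 for SHR1. Of 30 alternatives to this fit, the replicate block among them, the call was lost in 5 for WOX4, 5 for ZHD2 and 4 for SHR1.

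Among the other called genes, RR23, IAA13 and OSH71 were also counted in aleurone. RR23, a response regulator of cytokinin signalling, had 61.1 ± 7.83 CPM in embryo and 27.4 ± 26.9 CPM in aleurone (SD, n = 3; adjusted p = 0.0167, edgeR). IAA13, a repressor of auxin responses, had 13.0 ± 6.51 and 3.69 ± 3.49 CPM (adjusted p = 0.0293), and OSH71, a KNOX homeobox gene, 35.3 ± 16.1 and 16.3 ± 15.3 CPM (adjusted p = 0.0284). ZHD11, ARF10, an auxin response factor, and MYBS2, a MYB gene of sugar responses, were called and had counts in aleurone too. BZR1, a brassinosteroid factor, was called with 20.4 ± 3.27 CPM in embryo and 16.5 ± 19.7 CPM in endosperm (SD, n = 3) and a single count in aleurone. OSH15, listed by symbol with the KNOX genes, was called with 28.4 ± 5.69 CPM in embryo, 54.8 CPM in pericarp 3 and 0 in every other library. Of 30 alternatives to the edgeR fit, the call was lost in 7 for RR23, 13 for OSH71, 14 for IAA13, 20 for BZR1, 24 for MYBS2 and 26 for ZHD11, and of 29 in 22 for OSH15 and 25 for ARF10.

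HOX7, HOX20 and PHR2 were called although their mean was highest outside embryo. HOX20, an HD-Zip gene, had 19.4 ± 7.78 CPM in embryo and 41.5 ± 15.1 CPM in aleurone (SD, n = 3). HOX7, also an HD-Zip gene, had 6.37 ± 5.50 CPM in embryo and 28.6 ± 5.92 CPM in aleurone, and PHR2, a factor of phosphate starvation, 29.6 ± 13.7 CPM in embryo and 81.4 ± 16.6 CPM in endosperm. WOX5, a homeobox gene, was the gene that passed as lower, at 0 in embryo and 77.7 ± 19.9 CPM in endosperm (adjusted p = 0.0479, edgeR). Of the 30 alternatives, the call was lost in 25 for HOX7, 23 for PHR2, 21 for WOX5 and 9 for HOX20.

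**Figure D3:**
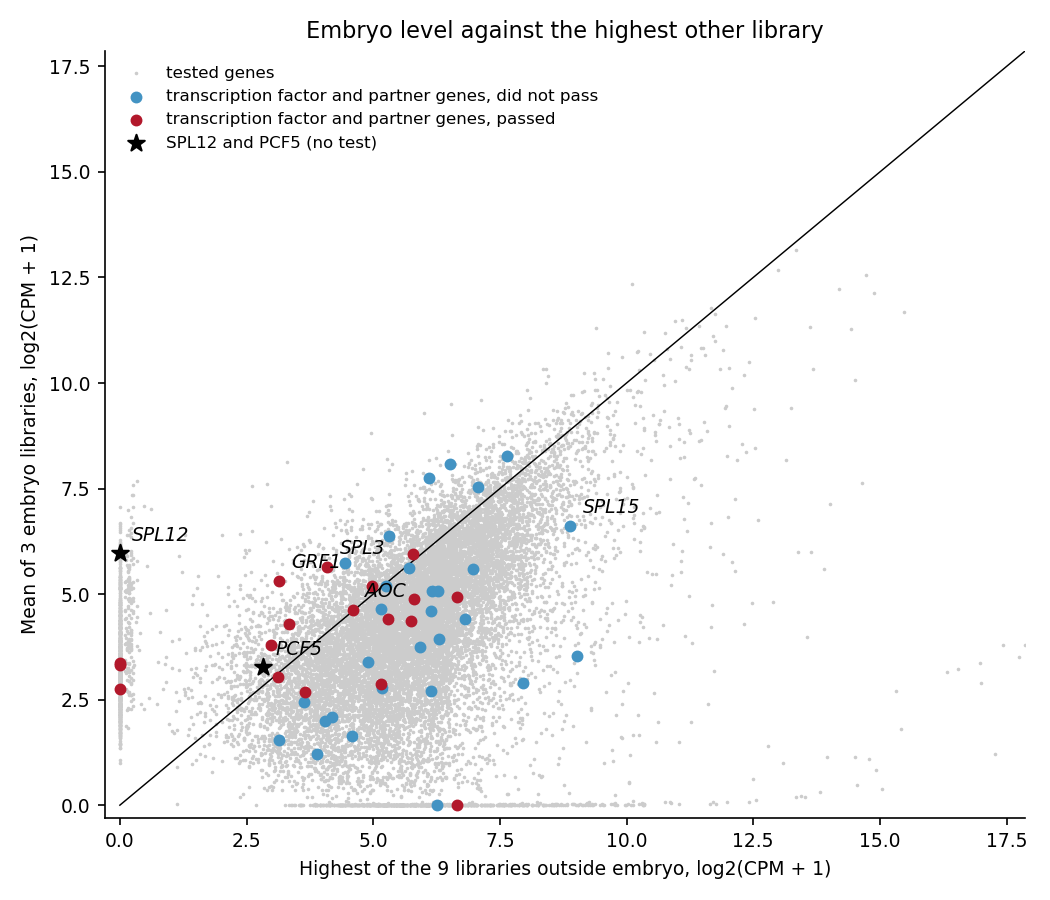
Mean of the 3 embryo libraries (y axis) against the highest of the 9 libraries outside embryo (x axis), both as log2(CPM + 1), for 16347 tested genes in grey, with transcription factor and partner genes in blue or, where they passed the edgeR test, in red, SPL12 and PCF5 as stars and the line of equal values in black. SPL12 lies at 0 on the x axis with 61.7 CPM in embryo, and PCF5 lies close to the line, with 8.65 CPM against 6.07 CPM in aleurone 1.

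The genes with a symbol whose levels over the 12 libraries were most like those of each factor were found by Pearson's r of log2(CPM + 1), over 341 symbols with a count. The libraries share tissue and depth, so r is given as a description. For SPL12 the 8 were FH2 (0.998), a formin gene; MCM9 (0.998), a gene of the minichromosome maintenance family; CYCB2-1 (0.994), a mitotic cyclin; EGY2 (0.993); VLN4 (0.992), a villin of actin filaments; WOX4 (0.990); SHR1 (0.988); and LTD (0.985). All 8 were counted in the 3 embryo libraries and in no other, as SPL12 was. Choosing genes by r favours this pattern, which 764 tested genes held, or 4.67%. Their embryo means ran from 3.85 ± 0.92 CPM for VLN4 to 101 ± 23.6 CPM for CYCB2-1 (SD, n = 3).

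For PCF5 the 8 were RR23 (0.955), ZHD11 (0.953), SPL3 (0.937), IAA13 (0.935), GRF1 (0.934), PDRP1 (0.914), PRMT10 (0.888) and APX1 (0.888). PDRP1 encodes a regulator of pyruvate phosphate dikinase, PRMT10 an arginine methyltransferase and APX1 an ascorbate peroxidase. RR23, ZHD11, SPL3, IAA13 and PDRP1 were counted in the same 5 libraries as PCF5, a pattern held by 299 tested genes, or 1.83%. PDRP1 had a higher mean in aleurone, 39.3 ± 43.4 CPM, than in embryo, 23.1 ± 8.45 CPM (SD, n = 3), with a spread in aleurone wider than the difference.

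The r between SPL12 and PCF5 was 0.716, which placed PCF5 54 in the order of SPL12 and SPL12 50 in that of PCF5. Of 16346 tested genes compared, 53, or 0.324%, had an r with SPL12 at or above that of FH2, and 66, or 0.404%, had an r with PCF5 at or above that of RR23. With 0.1 in place of 1 as the added constant, 8 of the 8 were kept for SPL12 and 6 of the 8 for PCF5.

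**Figure D4:**
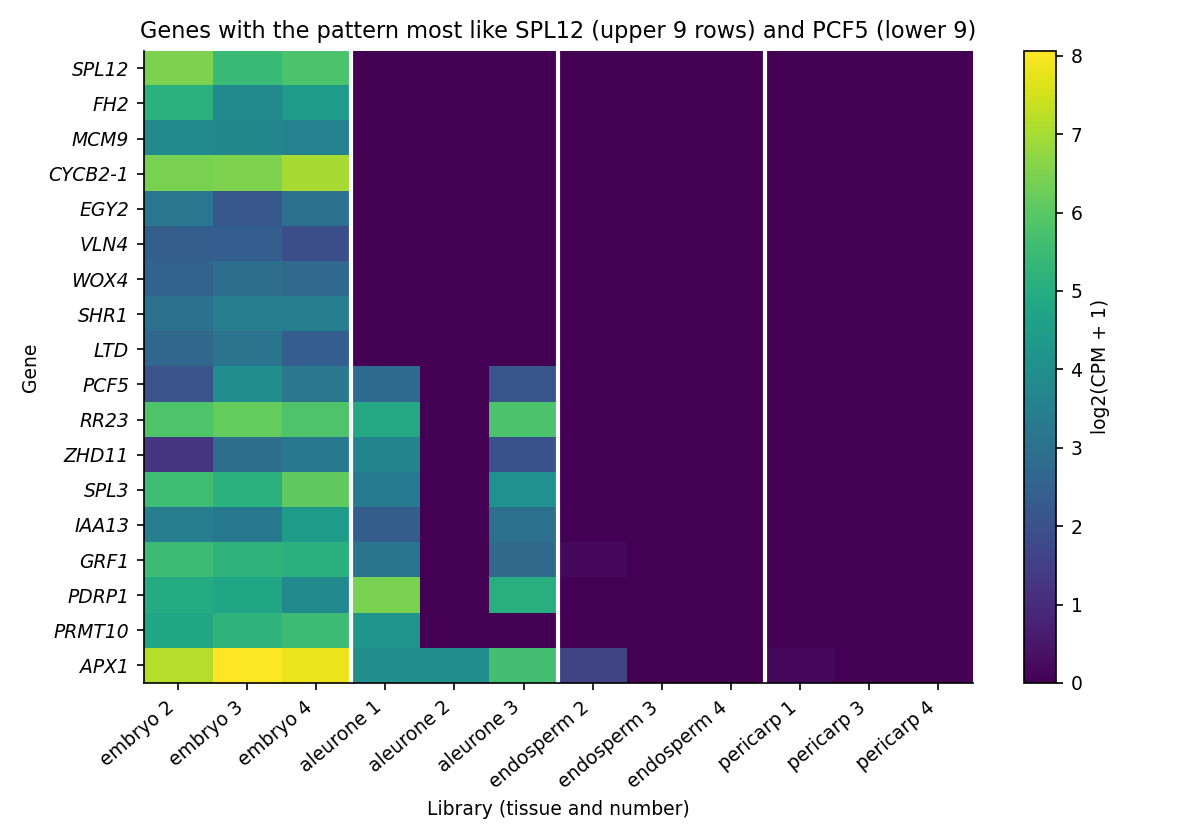
Levels as log2(CPM + 1) in colour of SPL12 with its 8 most alike genes (upper rows) and PCF5 with its 8 (lower rows) over the 12 libraries in columns, white lines parting the tissues. The genes with SPL12 are above 0 in embryo alone, and those with PCF5 also in at least 1 aleurone library.

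The genes that flank each factor in the table did not share its pattern. Before and after are meant by rising coordinate. As both factors lie on the minus strand, the gene before is on the side where their transcription ends. The gene 948 bases before SPL12, on the opposite strand, had 51 counts in a single embryo library and 24 in a single aleurone library, and the gene 4488 bases after SPL12 had none in any library. The gene 20205 bases before PCF5 had 32 counts in 1 aleurone library. The gene 34650 bases after PCF5 was counted in all 4 tissues, with means of 23.8 ± 10.5 CPM in embryo, 26.9 ± 8.57 CPM in aleurone, 43.2 ± 37.7 CPM in pericarp, where pericarp 3 had 2 counts, and 7.16 ± 12.4 CPM in endosperm (SD, n = 3), from endosperm 2 alone. The counts carry no statement on strand, so reads from overlapping transcripts of opposite strands could not be told apart.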

How the data were processed

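Per the labels' protocols, PicoPure was used for RNA and NEBNext Ultra for the libraries. The authors deposited total counts per gene per the file headers, whole numbers that were not normalized. The 36 columns of other units were not used. The sources used here do not give the aligner, genome build or use of strand. Columns were assigned by the letters in their headers, and Se was read as endosperm because the other 3 tissues were taken. SPL12, PCF5 and all gene lists were chosen with earlier results of these data known. Of 96 symbols matched as transcription factors, 83 were used and the rest dropped by product name.

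Counts were fitted with edgeR 4.0.16 in R 4.3.3 (filterByExpr minimum count 10, TMM, glmQLFit, glmQLFTest, tissue as the only term, 12 libraries). The fit was also run on simulated data, with a smaller spread than these libraries have and no tissue-wide zeros put in. That run therefore does not show how the fit behaves on these data. CPM used effective library sizes of the 16347 tested genes. Adjusted p is Benjamini-Hochberg over these genes. DESeq2 1.42.0, other scalings, no filter, lane, header number as a block and leaving out each library were alternatives. Genes named are SPL12 and PCF5, their families and partners, the 8 most alike symbols, called transcription factors, flanking genes and tissue checks. OLE18, a further check, enters in the marker sums. RefSeq symbols matched 10 of 12 family and partner genes on the same chromosome, all but SPL3 and AOC.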

Additional observations from a re-analysis of the deposited data

How the results depend on the processing

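Under other scalings the embryo means were 52.0 and 77.4 CPM for SPL12 and 7.36 and 11.1 CPM for PCF5. These moved by less than the SD. Without a library the embryo mean ran from 48.3 to 71.0 CPM for SPL12 and from 5.67 to 11.4 CPM for PCF5. With 3 libraries such a shift is always below the SD, so its size is no sign of stability. Calls over all genes, 2903 in the fit reported, were 4633 with DESeq2, 1863 with lane as a covariate and 392 with the replicate block. The block left 0 of 3 calls among SPL and TCP genes and partners. Among the tested transcription factor genes there was 1 call with the block and 9 with lane. With the block all 17 calls of the fit reported were lost. With lane those of WOX5, OSH15, HOX7, ZHD11, IAA13, ARF10, PHR2, MYBS2 and BZR1 were lost. Leaving out a library gave 1046 to 3188, 0 to 3 and 3 to 16 calls. With the gene filter rerun on the 11 libraries left, an alternative chosen after seeing the data, the ranges were 78 to 2873, 0 to 3 and 0 to 16. Without aleurone 3, endosperm 2 or endosperm 4 this gave 78, 317 and 120 calls over all genes and 0 in both lists, and without aleurone 2, embryo 2, embryo 4 or endosperm 3 it gave 1833, 1429, 992 and 1170. Transcription factor calls were then 8 without aleurone 2 and 11 without aleurone 1. They were 4, 7 and 3 without embryo 2, 3 and 4, and 5 without endosperm 3. Those of SPL and TCP genes and partners were 1 without embryo 2 and 0 without embryo 4. The cause was not tested. The block uses the header number, which is no stated pairing: deviations of same-numbered libraries correlated at -0.042 to 0.031 over 13 pairs. Keeping all symbols matched by pattern as transcription factors left 17 calls. None of the calls named above changed direction under an alternative. The order of tissues by mean did change with the scaling for SPL15, PCF2, GAM1 and SLR1. PCF2 had 1.93 CPM in embryo and 2.61 CPM in endosperm after TMM scaling, but 2.41 and 1.09 CPM on library totals alone. GAM1 had 5.51 CPM in embryo and 8.56 CPM in aleurone after TMM scaling, but 7.08 and 6.34 CPM on library totals alone.

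The dispersion is high (biological coefficient of variation 1.87). Of the genes at or above the SPL12 embryo mean, 28.4% to 38.5% were at 0 in pericarp libraries. This share limits what a 0 in pericarp shows. A gene at the SPL12 embryo mean would give 371 to 513 reads in these libraries. One at the PCF5 embryo mean would give 52.0 to 71.8 reads. The part of depth in the pericarp zeros was not tested. The p-values set the difference between tissues against the spread between these libraries.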
